A study of Mus musculus with 30 samples.

Results

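The 44 genes described here carry out mitosis: cyclins and Cdk1, mitotic kinases, spindle checkpoint and kinetochore proteins, spindle motors, cytokinesis factors and the condensin complex with its chromosomal partners. They were chosen by gene symbol, and all 44 of 44 were found among the 35727 genes of the deposited table. All 44 also passed the filter on low values, a normalized count of at least 10 in at least 3 libraries, which left 16958 genes for testing.

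Haematopoietic stem cells (HSCs) were sorted from mouse bone marrow, and their RNA was sequenced as 30 libraries in 8 groups, made with the Smart-seq2 protocol. Wild-type mice (WT) gave 4 libraries at 2 months, 5 at 1 year and 4 at 2 years of age. Mice labelled IL1R1 KO (KO), a knockout of the interleukin-1 receptor, gave 3 libraries at 2 months, 4 at 1 year and 5 at 2 years. Mice labelled bowel germ-free (GF), raised without a gut microbiota, gave 3 libraries at 2 months and 2 at 1 year. The labels name no strain, sex, knockout allele, animal or sorting markers, so the p-values below measure the spread between libraries, although the design text speaks of 30 mice. KO 1 year replicate 1 carries conflicting labels, since its title gives 1 year and its age field 2 months. It was kept at 1 year. The calls in KO at 1 year against 2 months, and in KO against WT at 1 year, are also given with it at 2 months. Other KO values are given with it at 1 year only. The KO label could not be checked from expression: Il1r1 was at 231 ± 40.2 normalized counts in the young KO libraries (SD, n = 3) and at 179 ± 54.8 in the young WT libraries (SD, n = 4). Every direction called KO therefore rests on the label. Defining HSC genes were present throughout. All 16 genes of the HSC identity list were above 0 in all 30 libraries, with Procr between 3210 and 7216 and Hlf between 5318 and 9309 normalized counts.

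HSCs of the adult marrow are mostly quiescent, and a small share of them is in cycle at any time. Most of the genes described here are transcribed in G2 and M phase and silent in resting cells, where the DREAM complex, a repressor assembly that contains the MuvB core, holds their promoters shut. Cyclin B with Cdk1 starts mitosis, the spindle checkpoint holds it until all kinetochores are attached, and the anaphase-promoting complex with Cdc20 ends it by having cyclin B and securin degraded. Abundance of these transcripts is a common readout of how much of a cell population is dividing. In bulk RNA of a sorted population, fewer dividing cells and less of this RNA in each cell cannot be told apart.

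The mitosis genes stood highest at 2 months and lower at 1 and 2 years in WT and in KO libraries. The GF mean at 1 year lay between the WT means of 1 year and 2 months for 33 of the 44 genes. The 44 genes averaged, as log2(normalized count + 1), 10.42 ± 0.13 in the young WT group (SD, n = 4), 9.78 ± 0.07 (n = 5) at 1 year and 9.97 ± 0.25 (n = 4) at 2 years. These means correspond to 1371, 880 and 1003 normalized counts per gene. The same mean was 10.65 ± 0.28 (n = 3), 10.02 ± 0.28 (n = 4) and 10.06 ± 0.23 (n = 5) in KO at 2 months, 1 year and 2 years, and 10.41 ± 0.13 (n = 3) and 10.23 ± 0.25 (n = 2) in GF at 2 months and 1 year. All 5 WT libraries of 1 year, at 9.71 to 9.85, lay below all 10 libraries of 2 months, the lowest of which was at 10.28. The KO libraries of 1 year ran from 9.70 to 10.38, with the library of conflicting age labels on top, and this last one lay among the libraries of 2 months. The 2 GF libraries of 1 year, at 10.05 and 10.41, did not overlap the WT libraries of 1 year.

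**Figure D1:**
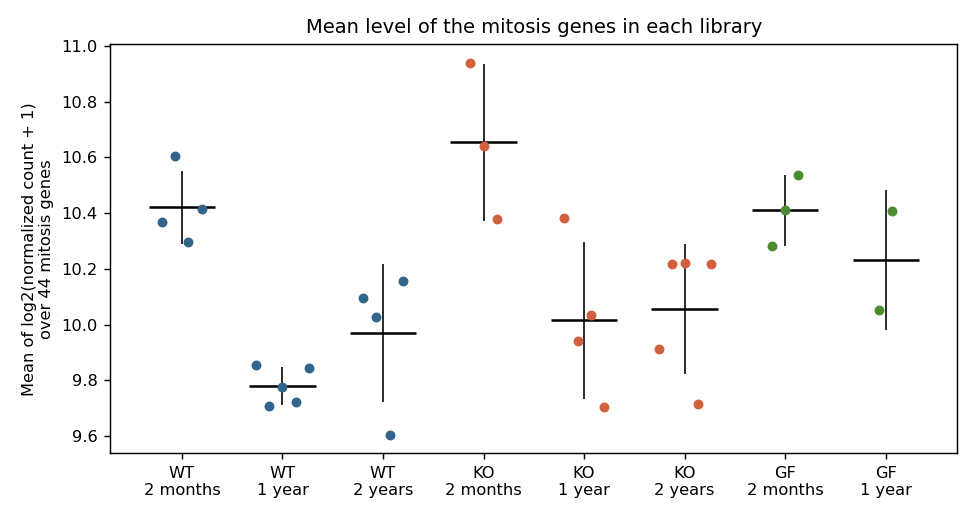
Mean of log2(normalized count + 1) over the 44 mitosis genes. Each point is a library, the horizontal line is the group mean and the vertical line 1 SD; blue is WT, orange KO and green GF, with age in months or years along the x axis. The 5 WT libraries of 1 year sit between 9.71 and 9.85, below all libraries of 2 months, and the 2 GF libraries of 1 year sit at 10.05 and 10.41.

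The ages of WT mice were compared first, since they show how the genes stand in HSCs of normal mice as they age. At 1 year 23 of the 44 mitosis genes had fallen against 2 months and none had risen (limma, adjusted p under 0.05 over all 16958 genes), beside 4.61% of all genes that were called lower. The log2 difference was below 0 for 43 of 44, with a median of -0.66, against a median of 0.01 over all genes tested. It ran from -1.13 for Birc5 to 0.06 for Bub3. For 33 of the 44 the 5 libraries of 1 year all lay below the 4 libraries of 2 months, as did 5.62% of all genes. At 2 years 7 of the 44 had fallen against 2 months and none had risen, beside 1.63% of all genes that were called lower. These 7 were Cks2, Birc5, Mki67, Cenpa, Top2a, Aurkb and Ect2. All 44 differences were below 0 at 2 years, with a median of -0.45, and 14 of 44 showed no overlap of libraries, beside 3.82% of all genes. The comparisons at 1 and 2 years share their libraries of 2 months. Between 2 years and 1 year no mitosis gene was called by limma, beside 0.0118% of all genes in either direction, and 4 of 44 had an unadjusted p under 0.05, all higher at 2 years, beside 4.36% of all genes. The median difference there was 0.20, with 41 of 44 above 0.

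**Figure D2:**
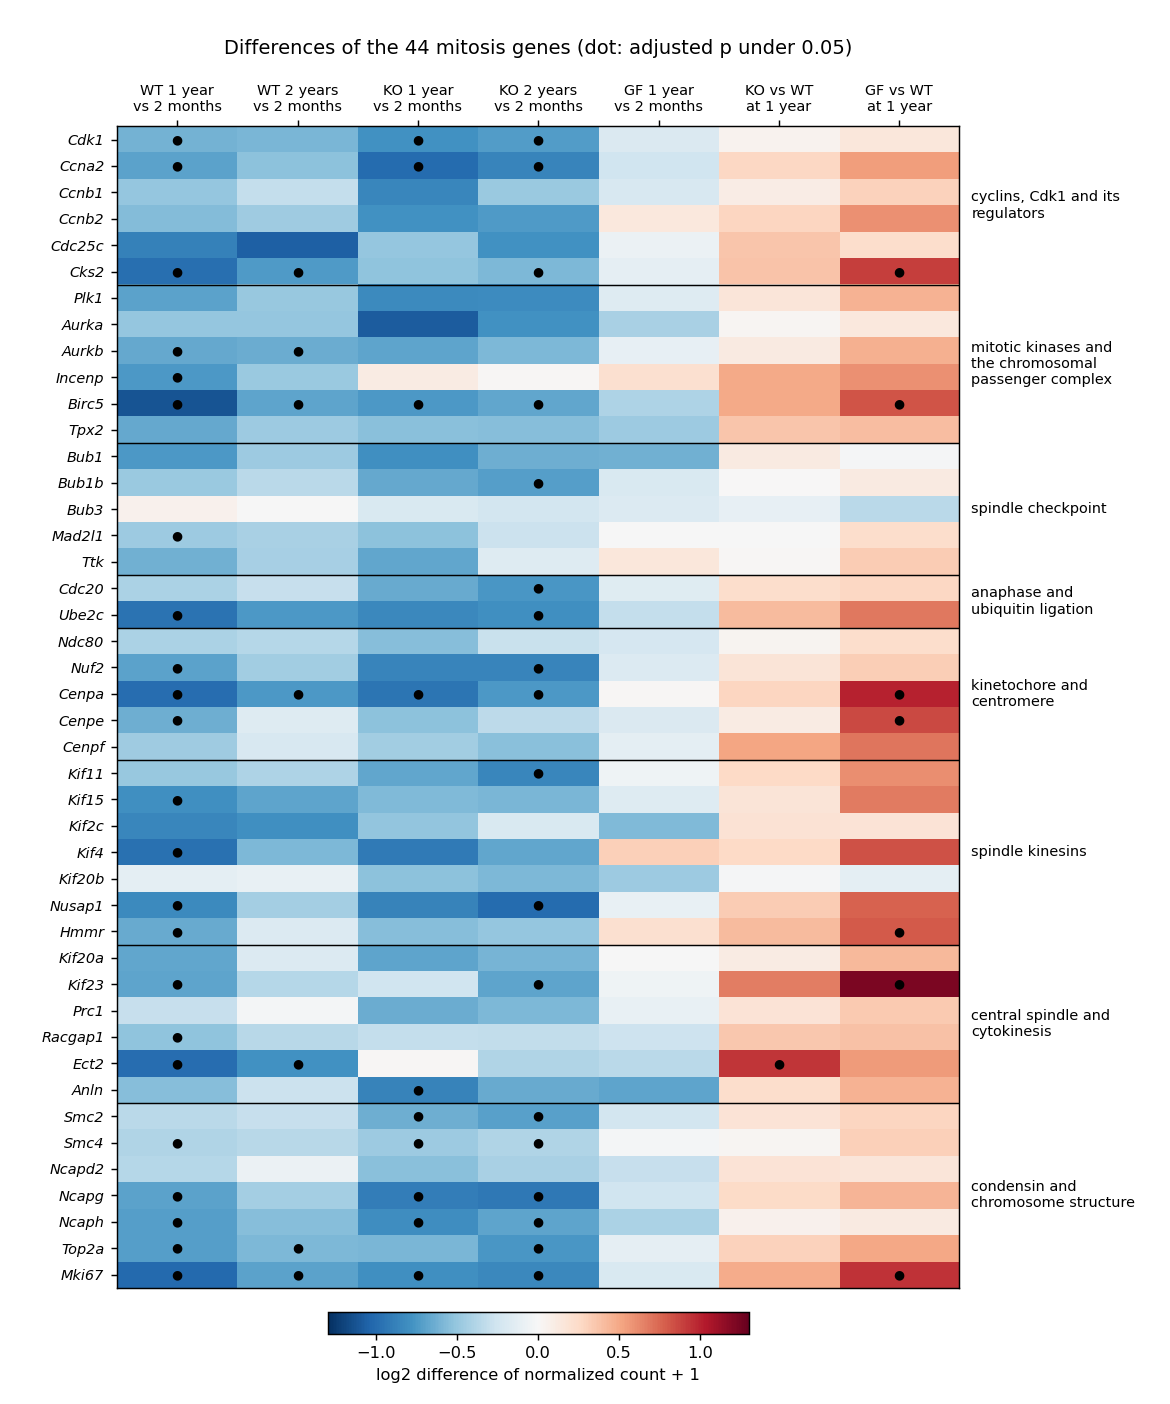
Fitted log2 differences of normalized count + 1 for the 44 mitosis genes (rows, grouped by role) in 7 comparisons (columns). Blue is lower and red higher in the first-named group, and a dot marks an adjusted p under 0.05; blue fills the WT and KO columns of age with 23, 7, 10 and 18 dots, the GF column of age is pale with no dot, and the columns of KO and GF against WT at 1 year hold 1 and 7 red cells with a dot.

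The promoters of 4 genes that fell at 1 year in WT are shown as examples, and no link between their sequence and the fall was tested. Short elements known from cell cycle genes lie before the start sites of many members. One is the CHR element, TTTGAA or TTTAAA, to which MuvB complexes bind, and the other is the CCAAT box, the site of NF-Y. The 4 had the smallest adjusted p among the members with a CHR match within 100 bases before the start. Their CHR matches were thus a condition of the choice and not a finding. Each line gives the 150 bases before the transcription start, 5′ to 3′ on the strand of the gene, from RefSeq on GRCm38.p6. Capitals mark TTTGAA and TTTAAA, and CCAAT, on either strand (TTCAAA and ATTGG are the reverse complements). Mki67 lies at chr7:135716380-135716529 on the minus strand, Cenpa at chr5:30666736-30666885 on the plus strand, Top2a at chr11:99024190-99024339 on the minus strand and Ube2c at chr2:164769779-164769928 on the plus strand.
Mki67: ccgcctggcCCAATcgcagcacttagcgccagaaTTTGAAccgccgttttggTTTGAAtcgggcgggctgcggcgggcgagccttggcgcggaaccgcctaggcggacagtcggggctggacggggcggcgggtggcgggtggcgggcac
Cenpa: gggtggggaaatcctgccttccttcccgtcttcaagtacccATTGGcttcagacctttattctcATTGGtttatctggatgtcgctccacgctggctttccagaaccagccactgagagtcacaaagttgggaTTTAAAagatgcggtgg
Top2a: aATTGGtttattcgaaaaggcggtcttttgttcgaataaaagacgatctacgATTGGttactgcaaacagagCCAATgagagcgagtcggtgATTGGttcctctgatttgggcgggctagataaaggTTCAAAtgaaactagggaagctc
Ube2c: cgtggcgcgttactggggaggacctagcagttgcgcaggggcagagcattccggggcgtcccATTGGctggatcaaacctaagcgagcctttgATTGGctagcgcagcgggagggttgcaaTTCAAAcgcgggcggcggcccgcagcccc

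In these windows Mki67 held 2 TTTGAA matches, and Cenpa, Top2a and Ube2c had a CHR match that began 17, 23 and 29 bases before the start. Top2a held 4 CCAAT boxes and Cenpa and Ube2c 2 each. The RefSeq promoter table matched 37 of the 44 genes, with 40 promoters, and it held 32841 promoters in all. Within 250 bases before the start, TTTGAA or TTTAAA was found in 55.0% of the members' promoters and in 25.2% of all promoters of that length. CCAAT was found in 75.0% and 33.9%. Within 100 bases the shares were 32.5% and 9.7% for the CHR element and 62.5% and 18.9% for CCAAT. Matches of the 2 motifs may share letters at their ends, and both are then counted. 18 members had at least 2 CCAAT matches in a promoter, as did 10.1% of all promoters, and 10 members had none. Birc5, the gene with the smallest adjusted p at 1 year, had no CCAAT in its window and a CHR match 220 bases before the start. Bub3, which did not fall, had a CHR match 43 bases and CCAAT 32 and 74 bases before one of its 2 starts. These matches are descriptions of the letters in the windows.

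Cyclins, Cdk1 and its regulators came first in WT. Of the 6, Cks2, Cdk1 and Ccna2 had fallen at 1 year, and the other three were below 0. Cks2, a small subunit that binds Cdk1 and helps it find its substrates, was at 2129, 1949, 1554 and 1789 normalized counts in the libraries of 2 months and at 1147, 966, 843, 884 and 865 in those of 1 year. At 2 years it was at 1209, 1055, 1065 and 1114. All older WT libraries lay below all young ones, and the log2 difference was -0.98 ± 0.14 (SE) at 1 year and -0.73 ± 0.15 at 2 years (limma, adjusted p = 2.73e-05 and 0.00243). Cdk1, the kinase that drives entry into mitosis, was at 1548, 2163, 1716 and 2033 at 2 months and at 1259.7, 1294, 1219, 1174 and 1114 at 1 year. The 2 sets of libraries did not overlap, and Cdk1 had fallen at 1 year (limma, adjusted p = 0.0315) but not past the threshold at 2 years (adjusted p = 0.0745). Ccnb1 and Ccnb2, the cyclins that activate Cdk1 at mitosis, did not pass the test. Ccnb1 was at 1439, 2971, 2301 and 2296 at 2 months and at 1579, 1322, 1621, 1671 and 1503 at 1 year, and the low value of 1 young library fell within the range of the older ones. Ccnb2 was at 1736, 1929.6, 1959 and 1712 and at 1179, 1215, 1313, 1303 and 1190.2, without overlap, and its log2 difference was -0.56 ± 0.22 (adjusted p = 0.111). Cdc25c, the phosphatase that switches Cdk1 on, had the widest difference of the 44 at 2 years, -1.06 ± 0.33, and missed the threshold there (adjusted p = 0.0514).

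Among the mitotic kinases and the chromosomal passenger complex, Birc5, Aurkb and Incenp had fallen at 1 year, and Tpx2, Plk1 and Aurka had not passed the test. Birc5, the survivin subunit that brings the passenger complex to centromeres, was at 1466, 1843, 1348 and 1786 at 2 months, at 810.5, 765, 783, 656 and 655 at 1 year and at 1196, 946, 771 and 1118 at 2 years. Each older library lay below each young one, and the libraries of 2 years reached into the range of those of 1 year. The level at 1 year was 2.18-fold lower, a log2 difference of -1.13 ± 0.15 (limma, adjusted p = 7.29e-06). At 2 years the difference was -0.68 ± 0.16 (adjusted p = 0.00772). Aurkb, the kinase of the same complex, was at 1869.9, 2413, 1836 and 1746 at 2 months, at 1283, 1125, 1294, 1319 and 1158 at 1 year and at 1524, 1452, 863 and 1273 at 2 years, and had fallen at both older ages (log2 -0.66 ± 0.17 and -0.64 ± 0.18). Plk1, a kinase of mitotic entry and spindle assembly, was at 1124, 1972, 863 and 1422 at 2 months and at 775, 802, 815, 739.5 and 822 at 1 year. Its young libraries spread widely and stayed above the older ones, and the adjusted p was 0.0947. Aurka, the centrosome kinase, was at 848, 1099, 819.7 and 988 and at 685, 643, 623, 586 and 770.1, again without overlap (log2 -0.50 ± 0.30, adjusted p = 0.337).

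The spindle checkpoint had the median nearest to 0 of the 8 roles at 1 year, -0.49. Of its 5 genes only Mad2l1, the subunit that captures Cdc20, had fallen at 1 year (log2 -0.47 ± 0.15, limma, adjusted p = 0.0446), and none at 2 years. Bub3, which holds the Bub kinases at kinetochores, was at 5976, 5977, 6259.7 and 5487 at 2 months and at 5294, 6238, 6736, 6299 and 6394 at 1 year. Its libraries overlapped, and its difference of 0.06 ± 0.11 lies in an interval of 2 SE from -0.16 to 0.28. Bub1b, a subunit of the mitotic checkpoint complex, was at 1914, 2083, 2010.3 and 2063 at 2 months and at 1377, 1561, 1475, 1453 and 1342 at 1 year, with no overlap and an adjusted p of 0.148. Of the anaphase genes, Ube2c, the conjugating enzyme that works with the anaphase-promoting complex, was at 1197, 1992, 1222 and 1509.6 and then at 829.95, 716, 764, 702 and 716 at 1 year. It had fallen 1.94-fold (limma, adjusted p = 0.00444). Cdc20, its activator, was at 3276, 2683, 3163 and 2651 and at 2075, 1964, 2364, 2373 and 2256, a smaller difference of -0.41 ± 0.20 that did not pass (adjusted p = 0.196).

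At the kinetochore, Cenpa, Cenpe and Nuf2 had fallen at 1 year, and Cenpa also at 2 years. Cenpa, the histone H3 variant that marks centromeres, was at 2477, 2921, 2568 and 2471 at 2 months, at 1449, 1203, 1428, 1359 and 1149 at 1 year and at 2040.4, 1596, 954 and 1868 at 2 years. All older libraries lay below all young ones, at a log2 difference of -0.99 ± 0.18 and -0.75 ± 0.18 (limma, adjusted p = 0.00032 and 0.0129). Among the spindle motors and their partners, Kif4, Hmmr, Nusap1 and Kif15 had fallen at 1 year and none at 2 years. Kif4, a chromosome-bound kinesin, was at 709, 809, 598 and 523 at 2 months and at 424, 305, 295, 331 and 317 at 1 year, without overlap (adjusted p = 0.00389). Kif11, the motor that pushes spindle poles apart, was at 1556, 1562, 1196 and 1455 and at 1179, 966, 932, 916 and 1134, without overlap by a narrow margin, and did not pass (adjusted p = 0.148). Kif20b stood nearest to 0 among these 7 genes, with overlapping libraries and a log2 difference of -0.13 ± 0.19.

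Of the 6 genes of the central spindle and cytokinesis, Ect2, Kif23 and Racgap1, which work together to place the contractile ring, had fallen at 1 year. Ect2, the exchange factor that activates RhoA, was at 502, 657, 660.3 and 542 at 2 months, at 304, 335, 216, 304 and 333 at 1 year and at 275, 444, 343 and 319 at 2 years. No older library reached the lowest young one, and Ect2 had fallen at both ages (limma, adjusted p = 0.00223 and 0.0326). Kif23, the motor of centralspindlin, was at 1402, 1454, 1522 and 1368 and at 1162, 685, 1076, 812 and 801 at 1 year. At 2 years it split into 1713, 753, 1532 and 758, 2 libraries above the young range and 2 near the level of 1 year, and it did not pass there (adjusted p = 0.32). In the group of condensin and chromosome structure, Mki67, Top2a, Ncaph, Smc4 and Ncapg had fallen at 1 year. Mki67, which coats mitotic chromosomes and is the standard marker of cycling cells, was at 2788, 3609.9, 3059.5 and 3447 at 2 months, at 1911, 1587, 1602, 1294 and 1643 at 1 year and at 2448, 1337, 2312 and 2036 at 2 years. Its older libraries all lay below the young ones, 2.01-fold lower at 1 year and 1.62-fold lower at 2 years (limma, adjusted p = 5.38e-05 and 0.00815). Top2a, the topoisomerase that disentangles sister chromatids, was at 4599.9, 5302, 4505 and 5837, then at 3588, 3016, 2647, 2785 and 3336 and at 3328, 3537, 2847 and 3746. Both older groups lay below the young one, and the log2 difference was -0.72 ± 0.16 and -0.59 ± 0.17. Smc4, a core subunit of condensin, was at 3221, 3821, 3449 and 4689.7 and at 3094, 2673, 2743, 2908 and 2947, a called but small fall of 1.31-fold (adjusted p = 0.0202). Ncapd2, a regulatory subunit of condensin I, was at 3264, 3121, 3318 and 2943 and at 2452, 1739, 2551, 3118 and 2575, and its libraries overlapped (adjusted p = 0.102).

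**Figure D3:**
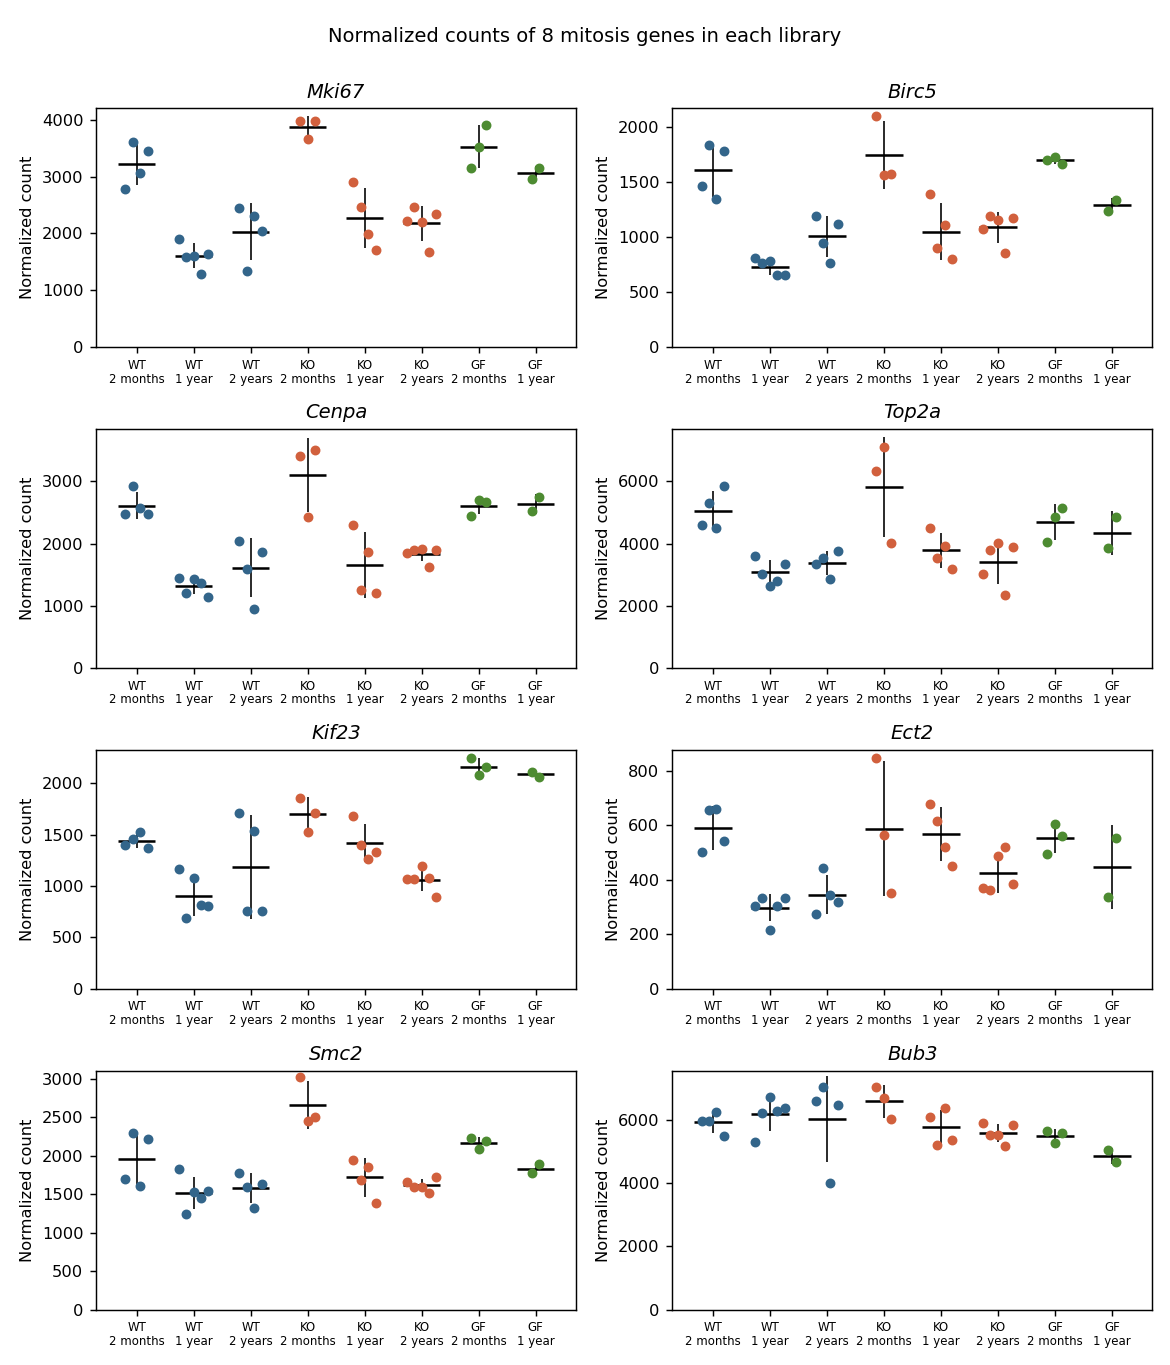
Normalized counts of 8 mitosis genes. Each point is a library, the horizontal line is the group mean and the vertical line 1 SD; blue is WT, orange KO and green GF, and each y axis starts at 0. Mki67, Birc5, Cenpa and Top2a are high at 2 months and lower in the older WT and KO groups, Cenpa and Mki67 stay high in the GF libraries of 1 year, and Bub3 shows no such step in WT.

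Markers of other cell types moved with the WT comparison at 1 year. Of 15 erythroid markers 6 had fallen and 1 had risen, and Ermap, Car1 and Gata1 differed by -4.13, -3.22 and -1.71 on the log2 scale. Their summed normalized count ran from 56585 to 60058 at 2 months and from 51833 to 67708 at 1 year, a sum led by Car2, and Slc4a1 was listed at 0 in 2 of the 30 libraries while Gata1 and Klf1 were above 0 in all. Of 13 neutrophil markers 6 had fallen, with sums of 5929 to 39412 and 266 to 2156. Mmp9 was listed at 0 in 7 libraries and Retnlg in 6. Of 9 lymphoid and multipotent progenitor markers 4 had fallen, with sums of 3381 to 7031 and 1935 to 2499, and of 13 monocyte markers 3 had fallen, with sums of 15149 to 79643 and 14081 to 16762. Of 16 HSC identity genes 8 had risen and 1 had fallen. The share of all genes called higher is not given, and it can be at most the 23.5% with an unadjusted p under 0.05 in either direction. With the mean of Klf1, Car1, Epor, Gata1 and Ermap as a covariate, 0 mitosis genes were called at 1 year and 1 at 2 years, and the median difference at 1 year was -0.32. This erythroid mean ran from 9.55 to 10.19 at 2 months and from 6.67 to 8.86 at 1 year, without overlap. A covariate that separates the groups compared takes up part of their difference and can itself lower the count. With the mean of the primary granule genes Mpo, Elane, Prtn3 and Ctsg as a covariate, 11 and 9 were called. Of these 4 genes only Prtn3 was called with age in WT, higher by 0.60 and 0.73 on the log2 scale. Mpo averaged 33923 normalized counts at 2 months, 904 at 1 year and 8605 at 2 years. Estimated depth moved with this comparison too, from 20.0 to 29.5 M reads at 2 months to 32.6 to 56.3 M at 1 year, without overlap. At 2 years depth was 23.6 to 29.6 M. There 0 of 15 erythroid and 0 of 13 neutrophil markers were called, while 2 of 9 lymphoid and multipotent progenitor markers and 1 of 13 monocyte markers had fallen and 5 of 16 HSC identity genes had risen. By the same bound, at most 18% of all genes were called higher at 2 years. B and plasma cell markers were summed at 1906 to 16551 at 2 months, 2232 to 14863 at 1 year and 19912 to 118887 at 2 years, where the libraries no longer overlapped with the young. None of the 13 was called by limma at either age, with 1 and 2 at an unadjusted p under 0.05, and Pax5 was listed at 0 in 11 of the 30 libraries. The part of depth and of these cell types in the results was not tested further.

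**Figure D4:**
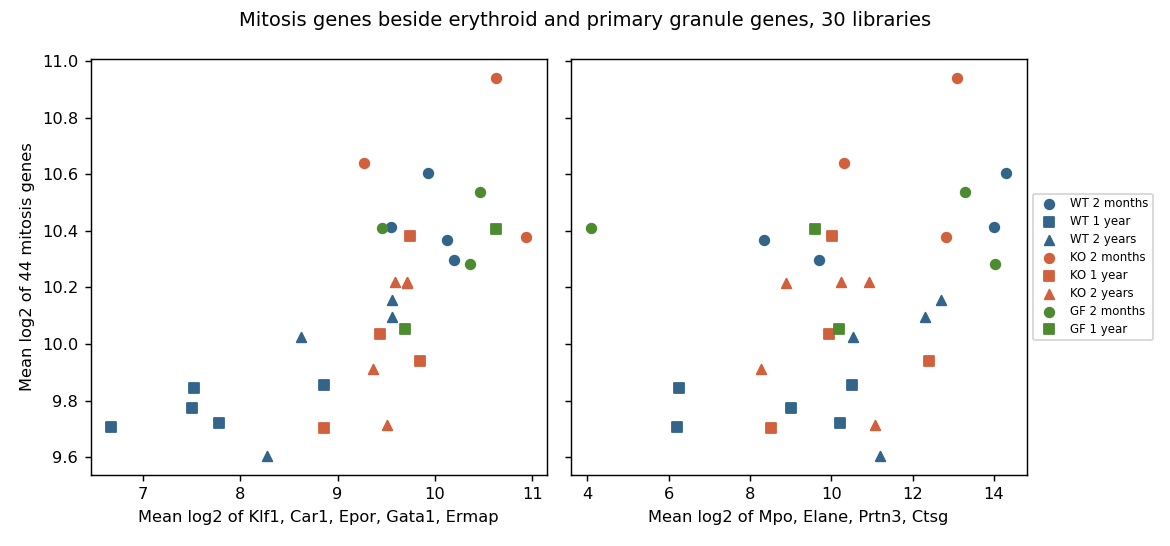
Mean log2(normalized count + 1) of the 44 mitosis genes (y axis) against that of 5 erythroid genes (left) and 4 primary granule genes (right) in each of the 30 libraries. Circles are 2 months, squares 1 year and triangles 2 years; blue is WT, orange KO and green GF. WT libraries of 1 year take the low end of the erythroid axis, 4 of the 5 between 6.67 and 7.78, and the libraries of 2 months spread from 4.10 to 14.3 on the granule axis.

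Of the 10 libraries of 2 months, 6 had high counts of Mpo, the peroxidase of primary granules, between 23626 and 73276 normalized counts. The other four were between 4.33 and 3075. The mean log2 of the mitosis genes ran from 10.28 to 10.94 in the former and from 10.30 to 10.64 in the latter, and the 2 ranges overlap. Without the 6 libraries, 6 mitosis genes were called lower at 1 year and 1 at 2 years in WT. That run takes replicates 2 and 4 out of the young WT libraries, and a smaller arm can itself lower the count. The call counts in WT also rested on single libraries. Without WT 2 months replicate 2, 11 genes were called at 1 year and 4 at 2 years, and without replicate 4, 14 were called at 1 year. Without WT 2 years replicate 3, which was the lowest of all 30 libraries for 13 of the 44 genes, 3 were called at 2 years. The median difference kept its sign and ran from -0.69 to -0.56 at 1 year over all runs without 1 library.

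In the KO libraries the mitosis genes also stood lower at both older ages. At 1 year 10 of 44 had fallen against KO at 2 months and none had risen, beside 0.613% of all genes called lower. The median difference was -0.66, and 21 of 44 showed no overlap of libraries, beside 5.34% of all genes. At 2 years 18 of 44 had fallen and none had risen, beside 2.90% of all genes, with a median of -0.64 and 25 of 44 without overlap, beside 7.44% of all genes. Both comparisons share the 3 KO libraries of 2 months. Between 2 years and 1 year in KO no mitosis gene was called by limma, beside 0.177% of all genes, and 1 had an unadjusted p under 0.05, beside 7.37% of all genes. The WT and the KO comparisons share no library. All groups share 1 estimate of the spread of each gene, however, so their calls are not independent. At 1 year 8 genes were called in both, 34.8% of the WT calls and 80.0% of the KO calls, and at 2 years 5 were, 71.4% of the WT calls and 27.8% of the KO calls. The 8 were Birc5, Ccna2, Cdk1, Cenpa, Mki67, Ncapg, Ncaph and Smc4. The overlap of WT and KO calls over all genes was not counted, so these shares have no such value beside them.

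Condensin and chromosome structure held more KO calls than any other role, with 5 of its 7 genes at 1 year and 6 of 7 at 2 years. Smc2, the partner of Smc4 in the condensin ring, was at 3018, 2448 and 2508 at 2 months, at 1949, 1688, 1850.2 and 1382 at 1 year and at 1665, 1595, 1596, 1519 and 1724 at 2 years. The 9 older libraries all lay below the 3 young ones, and the log2 difference was -0.64 ± 0.14 and -0.71 ± 0.13 (limma, adjusted p = 0.0119 and 0.000733). In WT the same gene did not pass at either age, with -0.36 ± 0.12 and -0.29 ± 0.13. Mki67 was at 3985, 3659 and 3980.2 at 2 months, at 2898, 2470.5, 1996 and 1706 at 1 year and at 2216, 2469, 2196, 1672 and 2346 at 2 years, again with no overlap. It had fallen 1.74-fold and 1.79-fold (adjusted p = 0.0132 and 0.00161). Ncapg, a condensin I subunit, was at 1338, 1192 and 1015, then at 786, 459, 779 and 555 and at 358, 692, 828, 597 and 730.2, and was called at both ages. Smc4 had fallen at both ages by 1.38-fold and 1.31-fold. Top2a was at 6326, 7108 and 4023 at 2 months, where 1 library lay far below the other two, and at 3019, 3808, 4008, 2337 and 3901 at 2 years. It was called at 2 years only (adjusted p = 0.0829 at 1 year and 0.00498 at 2 years). Ncapd2 was not called in KO (adjusted p = 0.0776 and 0.102).

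Of the kinases and passengers Birc5 was called in KO at both ages. It was at 2100.3, 1563 and 1575 at 2 months, at 1392, 899.8, 1113 and 804 at 1 year and at 1074, 1196, 1153, 856 and 1177 at 2 years, with no overlap (log2 -0.75 ± 0.17 and -0.67 ± 0.16, limma, adjusted p = 0.0185 and 0.00905). Incenp, the scaffold of the same complex, had overlapping libraries, at 2149.96, 2043 and 1161 and then at 2192, 2258, 1936 and 1228 and 2131, 2222, 1666, 1126 and 1773. Its difference at 1 year lies in an interval of 2 SE from -0.36 to 0.57. Aurka had the widest difference of all 44 at 1 year in KO, -1.08 ± 0.35, and Plk1 was at -0.83 ± 0.30, but neither passed (adjusted p = 0.105 and 0.174). Aurka was at 1616, 1311 and 1334 at 2 months and at 1035, 459, 803 and 524 at 1 year, a spread within the older group of over 2-fold. Aurkb missed the threshold at both ages (adjusted p = 0.0635 and 0.0515).

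Cenpa was called in KO at both ages. It was at 3402, 2423 and 3495 at 2 months, at 2301, 1247, 1858 and 1202 at 1 year and at 1855, 1899, 1912, 1619 and 1892 at 2 years, and the old libraries all stayed below the young (log2 -0.95 ± 0.20 and -0.74 ± 0.19). Nuf2, an arm of the Ndc80 complex that grips microtubules, was called at 2 years (limma, adjusted p = 0.0307). Of the cyclins and Cdk1, Ccna2 and Cdk1 were called at both ages and Cks2 at 2 years. Ccna2, the cyclin of S and G2 phase, was at 5051, 2862 and 3484 at 2 months, at 2258, 1753, 1997 and 1464 at 1 year and at 1781, 2496, 2487, 1659 and 1937 at 2 years. Its young libraries all lay above the older ones, with KO 2 months replicate 1 standing out at the top, and the fall was 2.00-fold at 1 year and 1.81-fold at 2 years. Ccnb1 and Ccnb2 were not called at either age, with -0.85 ± 0.25 and -0.78 ± 0.25 at 1 year. Cdc20 and Ube2c had both fallen at 2 years, to 2305, 3110.4, 2805, 1459 and 2771 from 5377, 3574 and 3515 for Cdc20 (adjusted p = 0.0243). Nusap1, a microtubule bundling protein, and Kif11 were the 2 called spindle genes at 2 years. Nusap1 fell 2.00-fold, from 1668, 1272 and 1427 to 507, 933, 832, 572 and 872, and Kif11 1.80-fold, from 2512, 2395 and 1235 to 806, 1439, 1135, 926 and 1224. For Kif11 the lowest young library lay below the highest old one. In cytokinesis Anln, which links actin to the cleavage ring, was called at 1 year and Kif23 at 2 years. Bub1b was the 1 checkpoint gene called, at 2 years (adjusted p = 0.0481), although its libraries overlapped, and Bub3 differed by -0.20 ± 0.13 and -0.24 ± 0.12.

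The KO calls rested more on single libraries than the median did. KO 2 months replicate 1 was the highest of all 30 libraries for 29 of the 44 genes, and without it 0 genes were called at 1 year and 3 at 2 years. The count at 1 year was 21 without KO 1 year replicate 1, 16 without WT 2 years replicate 3, 6 without KO 1 year replicate 3, WT 1 year replicate 5 or WT 2 years replicate 1, 5 without KO 2 months replicate 2, 3 without KO 1 year replicate 2 and 2 without KO 1 year replicate 4. With KO 1 year replicate 1 placed at 2 months it was 6, and with the replicate numbers as a block it was also 6. The count at 2 years was 9 without KO 2 years replicate 1 and 10 without replicate 4. Without the 6 libraries of high Mpo the counts were 0 and 2. That run leaves 1 KO library of 2 months, whose spread is taken from the other groups, and an arm of that size can itself lower the count. With the erythroid mean as a covariate they were 0 and 6, and with the primary granule mean 5 and 13. Prtn3, a gene of that granule mean, was called higher in KO at 2 years, by 0.84 on the log2 scale. Markers of other cells moved with age in KO as well. Of 9 lymphoid and multipotent progenitor markers 2 had fallen at 2 years, Cd48 with a log2 difference of -3.38 and Flt3 with -1.303, and 1, Il7r, had risen. Their sums ran from 2731 to 3750 at 2 months and from 1919 to 2675 at 2 years. Of 13 monocyte markers 1 had fallen at 2 years, Ms4a6c with -2.26, and the sums were 14601 to 46972 at 2 months and 13359.6 to 14539 at 2 years. Of 16 HSC identity genes 3 had risen at 2 years, Procr, Gata2 and Slamf1, and 1 had fallen. The share of all genes called higher is not given, and it can be at most the 20.8% with an unadjusted p under 0.05. At 1 year 0 of these monocyte and HSC genes were called. The part of these cells was not tested. Of the 15 erythroid markers 1 had fallen in KO at 1 year and 2 at 2 years, Gata1 in both. Their summed level ran from 69413 to 124763 in KO at 2 months, from 66261 to 79687 at 1 year and from 65357 to 80335 at 2 years. The median difference of the mitosis genes ran from -0.83 to -0.49 at 1 year and from -0.74 to -0.51 at 2 years over the runs without 1 library.

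In GF libraries no mitosis gene was called between 1 year and 2 months (limma), beside 0.814% of all genes that were called lower. At an unadjusted p under 0.05 stood 1 gene, Anln, beside 15.2% of all genes, with a log2 difference of -0.69 ± 0.26 (adjusted p = 0.178). The median difference was -0.18, with 38 of 44 below 0, and 10 of 44 showed the 2 libraries of 1 year below the 3 of 2 months, beside 12.6% of all genes. Mki67 was at 3155, 3518 and 3908 at 2 months and at 2964 and 3147 at 1 year, Birc5 at 1707, 1728 and 1664 and at 1240.3 and 1339. Both were lower in each library of 1 year, by -0.20 ± 0.21 and -0.40 ± 0.21 on the log2 scale, and did not pass (adjusted p = 0.719 and 0.362). Cenpa was at 2446, 2704 and 2668 and at 2516 and 2749.9, which overlap. Its interval of 2 SE runs from -0.46 to 0.49, that of Top2a from -0.54 to 0.32 and that of Kif23 from -0.56 to 0.45. Ranges are also given for 16 genes that span the roles: Mki67, Top2a, Cdk1, Ccnb1, Ccnb2, Aurka, Aurkb, Plk1, Bub1b, Bub3, Cdc20, Birc5, Cenpa, Kif11, Smc4 and Ncapd2. Among these 16 the GF difference ran from -0.42 for Aurka to 0.14 for Ccnb2. Estimated depth moved with age in GF too, from 24.9 to 32.1 M reads at 2 months to 15.6 and 23.9 M at 1 year, without overlap. The part of depth was not tested.

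Set against WT at the same age, GF libraries of 1 year held more RNA of 7 mitosis genes and less of none, beside 1.83% of all genes called higher. The 7 were Kif23, Cks2, Mki67, Cenpa, Birc5, Hmmr and Cenpe. The median difference was 0.44, with 41 of 44 above 0, and for 22 of 44 both GF libraries lay above all 5 WT libraries, beside 13.2% of all genes. The WT libraries of 1 year in this comparison are the same as in the comparison of WT ages, so its values are not independent of that one. Kif23 was at 2112 and 2060.04 in GF and at 1162, 685, 1076, 812 and 801 in WT, 2.34-fold higher (limma, adjusted p = 0.0031). It was also high in GF at 2 months, at 2247, 2081 and 2158, above all 4 young WT libraries, and there it missed the threshold (log2 0.59 ± 0.21, adjusted p = 0.304). Cks2 was at 1678 and 1811 against 1147, 966, 843, 884 and 865, 1.86-fold higher. Mki67, at 2964 and 3147 against 1911, 1587, 1602, 1294 and 1643, was 1.91-fold higher, and Cenpa, at 2516 and 2749.9 against 1449, 1203, 1428, 1359 and 1149, 2.00-fold. None of these libraries overlapped. Hmmr, a spindle and microtubule protein, differed by 0.80 ± 0.22 and Cenpe, a kinetochore motor, by 0.86 ± 0.26 (adjusted p = 0.0297 and 0.0481). Bub3 lay the other way, at 5047 and 4674 against 5294, 6238, 6736, 6299 and 6394, lower in both GF libraries without passing (adjusted p = 0.142). Among the 16 genes the differences ran from -0.35 for Bub3 to 1.00 for Cenpa.

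Other values moved with this comparison. The WT libraries of 1 year were at an estimated 32.6 to 56.3 M reads, read from the commonest low value as that of 1 read, and the GF libraries of 1 year were at 15.6 and 23.9 M, in a range of 15.6 to 56.3 M over all 30. Of 15 erythroid markers 7 were called higher in GF, with a median difference of 2.77, and their sums ran from 64220 to 76297 in GF and from 51833 to 67708 in WT. With the erythroid mean as a covariate 0 mitosis genes were called, and with the primary granule mean 6. The erythroid mean was at 9.69 and 10.6 in GF and at most at 8.86 in WT, so this covariate can itself lower the count. Without GF 1 year replicate 1, 2 were called, and without replicate 2, 3. The part of depth and of erythroid RNA was not tested further.

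Whether the change with age differed between GF or KO and WT was tested directly. No gene was called for the difference of the changes to 1 year between GF and WT, beside 0% of all genes, since limma called none at all. The fall was smaller in GF for 41 of 44 genes, by a median of 0.44 on the log2 scale, and 8 had an unadjusted p under 0.05, beside 10.6% of all genes. The lowest adjusted p was 0.217, for Cks2, whose change differed by 0.87 ± 0.24. Kif4 differed by 1.28 ± 0.37, Cenpa by 1.00 ± 0.30 and Mki67 by 0.81 ± 0.26. Estimated depth was lower at 1 year than at 2 months in GF and higher in WT, without overlap in either. Its part in these differences was not tested. The difference between KO and WT in the change to 1 year was called for no mitosis gene, beside 0.0354% of all genes, with a median of -0.05 and 3 of 44 at an unadjusted p under 0.05, beside 10.1% of all genes. Ect2 had the smallest, with 1.01 ± 0.32 and an adjusted p of 0.244. For the change to 2 years none was called either, beside 0.395% of all genes, with a median of -0.17 and 1 of 44 at an unadjusted p under 0.05, beside 9.73% of all genes.

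KO and WT libraries were also compared at matched ages. At 2 months no mitosis gene was called (limma), beside 0.407% of all genes in either direction. The median was 0.23, with 38 of 44 above 0, and 6 of 44 had an unadjusted p under 0.05, beside 9.57% of all genes. The group mean was the highest of all 8 groups in KO at 2 months for 35 of the 44 genes. Among the 16 genes the difference ran from 0.10 for Smc4 to 0.60 for Aurka. At 1 year Ect2 was called higher in KO and no other, beside 0.666% of all genes called higher. It was at 677, 618, 522 and 453 in KO and at 304, 335, 216, 304 and 333 in WT, with no overlap, 1.90-fold higher (adjusted p = 0.0193). Ect2 was not called with KO 1 year replicate 1 placed at 2 months, with the erythroid mean as a covariate, or without WT 1 year replicate 3 or KO 1 year replicates 1 or 2. Instead 2 genes were called without WT 1 year replicate 1, without any 1 of the 4 WT libraries of 2 years, or without KO 1 year replicate 4, and 3 with array quality weights. Of 15 erythroid markers 5 were called higher in KO at 1 year. The median over the mitosis genes was 0.21, and Mki67 and Birc5 differed by 0.48 ± 0.15 and 0.49 ± 0.15 without passing. At 2 years no gene was called, beside 1.42% of all genes, with a median of 0.08 and 0 at an unadjusted p under 0.05, beside 11.5% of all genes. GF and WT at 2 months did not differ in any mitosis gene past the threshold, beside 0.601% of all genes, with a median of 0.00 and 2 of 44 at an unadjusted p under 0.05, beside 9.49% of all genes. There the 16 genes ran from -0.28 for Cdk1 to 0.17 for Kif11.

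The genes differed in how precisely they were measured. The SE of the WT difference at 1 year ran from 0.11 for Smc4 to 0.32 for Ttk, a checkpoint kinase. Ttk was at 378, 748, 466 and 356 at 2 months and at 349, 299, 284, 292 and 290.1 at 1 year in WT, and 1 young library lay far above the rest. Over the 4 comparisons of WT or KO with 2 months, 28 of the 44 genes were called lower at least once and 16 never. Mki67, Birc5 and Cenpa were called in all 4. The share of all genes called lower at least once was not counted. In all 4 it can be at most the 0.613% of all genes called lower in KO at 1 year. Comparisons within WT, and within KO, share their libraries of 2 months. Library preparation did not mark the strand, so reads from overlapping genes on the opposite strand, such as Exosc9 at Ccna2, Cdc23 at Kif20a, Oip5 at Nusap1 and Pdzd11 at Kif4, cannot be told apart from those of the members.

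Other genes of mitosis and the cell cycle, from lists chosen by function, were read in the same fit. Of 50 further kinetochore and spindle genes 19 had fallen in WT at 1 year and 4 at 2 years, with medians of -0.52 and -0.35. In KO 6 and 9 had fallen, in GF none. Cks1b, the sister of Cks2, was called in all 4 comparisons of WT and KO, with -0.76 and -0.57 in WT and -0.62 and -0.68 in KO at 1 and 2 years. Cenph and Knl1, of the inner and outer kinetochore, differed by -0.93 and -1.18 in WT at 1 year. Of the 40 DNA replication genes 19 and 10 had fallen in WT at 1 and 2 years and 14 and 18 in KO. Gmnn, the inhibitor of replication licensing, was called in all 4, with -0.87 and -0.72 in WT and -0.87 and -0.84 in KO. In GF 4 of the 40 had fallen at 1 year, among them Prim1 at -0.76, Cdt1 at -0.96 and Mcm6 at -0.80, and the median of the list was -0.46, beside -0.18 for the mitosis genes. Against WT at 1 year the replication list had a median of -0.09 in GF and the mitosis genes one of 0.44. That the 2 lists differ was not tested.

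The anaphase-promoting complex, whose subunits are present through the whole cycle, had 1 of 17 genes lower in WT at 1 year, Anapc13 at -0.53, and 1 in KO at 2 years, Fbxo5, an inhibitor of the complex, at -0.78. Of 17 cohesin and condensin II genes 6 had fallen in WT at 1 year and 1 at 2 years, and none in KO or GF with age. Esco2, which acetylates cohesin in S phase, differed by -1.32. Rad21, the cohesin kleisin, was called higher in GF and in KO than in WT at 1 year, at 0.65 and 0.51. Among 20 regulators of mitotic transcription, 4 had fallen and Rb1 had risen in WT at 1 year. E2f1 and E2f8 differed by -1.01 and -1.02, and Rb1, the retinoblastoma protein that restrains E2F factors, by 1.00. At 2 years Mybl2, the Myb protein that joins MuvB to turn on mitotic genes, differed by -1.14 in WT and Rb1 by 0.92. None of the 20 was called in KO or GF with age. Among CDK inhibitors and G1 cyclins Cdkn2c, an inhibitor of Cdk4 and Cdk6, had risen in WT at both ages, by 1.199 and 1.35, and in KO at 2 years, by 1.17. Ccnd1, cyclin D1, had risen in the same 3 comparisons, by 0.90, 0.64 and 0.54. Cdkn1a, an inhibitor of Cdk2 and Cdk1, had risen in KO at 2 years by 2.36, and Ccne1, the cyclin of S phase entry, had fallen in WT at 1 year by 1.25.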

How the data were processed

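RNA of 30 libraries was read from 1 deposited table of normalized counts per gene. The authors deposited this signal as normalized counts, and its values are not whole. Depth per library was estimated at 15.6 to 56.3 M reads. DESeq2 1.26.0, Salmon 1.2.0.0, FastQC 0.11.9 and cutadapt 2.10 are named in the submitters' processing notes, as are the builds GRCm38 and mm10. Whole reads could not be recovered, so no count test was run. Symbols came from GENCODE M21.

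Values were tested as log2(value + 1) with limma 3.58.1 in R 4.3.3, with 1 mean per group over all 30 libraries, trended and robust variances, two-sided tests and Benjamini-Hochberg adjustment over 16958 genes. Fold changes are on that scale and understate those of low genes. Tables and figures used Python 3.11.15, pandas 2.3.3, numpy 2.4.6 and matplotlib 3.10.9. Alternatives changed the pseudocount, the filter, the scaling, the libraries and the covariates. The rule for named genes took the called ones of smallest adjusted p in each comparison of ages, up to 8 in each direction, and 16 genes, given by value or as a range. Further genes, such as the other called ones, Cdc25c and Kif20b, were named after their values were seen. The genes and lists were chosen with earlier results of these data known.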

Additional observations from a re-analysis of the deposited data

Results flagged for a closer look

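The 44 mitosis genes and their mean were screened in each of the 5 groups of 4 or 5 libraries. Of 225 such sets of values, 16 held a library far from the others by Dixon's criterion at the 95% level, where chance alone picks about 5% of sets. WT 2 years replicate 3 was the far library for 4 genes, low in each. It was at 652 normalized counts for Ccnb2, where the other three libraries lay between 1607 and 1724. For Aurka it was at 224, against 902 to 977, for Plk1 at 500.3, against 1049 to 1153, and for Tpx2 at 758, against 1189.6 to 1217. KO 1 year replicate 1, the library of conflicting age labels, was high for 2 genes. It was at 2207 for Bub1b, against 1189 to 1320.1, and at 1377 for Kif20a, against 647 to 700.006. KO 1 year replicate 4 was low for Ndc80, at 512 against 684 to 705. KO 2 years replicate 4 was low for Cenpa, at 1619 against 1855 to 1912, and for Ttk, at 295 against 442 to 501.

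WT 2 months replicate 1 was at 1067 for Bub1, against 502 to 544. Among the WT libraries of 1 year, replicate 1 was high for Ttk, at 349 against 284 to 299, and for Kif4, at 424 against 295 to 331. Replicate 2 was at 1384 for Tpx2, against 757 to 916, and at 493 for Ncaph, against 601 to 621. Replicate 3 was at 216 for Ect2, against 304 to 335, and replicate 5 at 888 for Cenpf, against 562 to 609.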

How the results depend on the processing

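Beside the reported settings 43 others were run, 30 of which left out 1 library. Of the results for single genes 7161 kept their side of the threshold, the called ones with their direction and the others within 1 SE. Another 486 lost the call, 53 gained a call, and 82 that were called in neither fit moved by at least 1 SE. The 1 reversal was Ccna2 in WT at 1 year, at 0.08 with the erythroid covariate. Called counts at 1 and 2 years in WT were 23 and 7. At 1 year they were 11 with the primary granule covariate, 0 with the erythroid covariate and 6 without the 6 libraries of high Mpo. At 2 years they were 2 with only the compared groups, 3 with array quality weights, 1 with the erythroid covariate and 1 without those libraries. In KO at 1 year the 10 became 5 with no filter, 0 with only the compared groups, 6 with array quality weights, 6 with replicate 1 of 1 year at 2 months, 5 with the primary granule covariate, 0 with the erythroid one and 0 without high Mpo. The 18 at 2 years became 6 with the erythroid covariate and 2 without high Mpo. For GF against WT at 1 year 0 remained with the erythroid covariate. That covariate did not overlap between the groups there, nor between WT at 1 year and 2 months, and can itself lower these counts. For KO against WT at 1 year the count was 3 with array quality weights, 0 with replicate 1 of KO at 2 months and 0 with the erythroid covariate. Without high Mpo the young KO arm is 1 library, whose spread is assumed to be that of the other groups. The young WT arm then lacks replicates 2 and 4. The cause of the other changes was not tested. Leaving out 1 library gave 11 to 26 and 3 to 10 in WT, 0 to 21 and 3 to 24 in KO, 2 to 8 for GF against WT at 1 year, 0 to 2 for KO against WT at 1 year and 0 to 0 in the other comparisons. With the replicate number as a block the counts were 21 and 7 in WT, 6 and 14 in KO, 5 for GF against WT at 1 year, 1 for KO against WT at 1 year and 0 in the others. Deviations of same-numbered libraries had a median r of 0.0055 over 88 pairs, beside -0.001 over 302 pairs of other numbers. An r over 0.1 was found for 5 of the 88 and 2 of the 302, with highest values of 0.165 and 0.175. A median cannot show whether the numbers pair some of the libraries, and this was not tested further.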
